A study of Mus musculus with 8 samples.

Results

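Kit, Lad1, Adgrg1, Arhgap20 and Tff1 are 5 genes whose transcripts were far more abundant in thymic than in splenic regulatory T (Treg) cells, in mice with and without the microRNA cluster miR-181a/b-1. They were selected on their array levels, because they carried some of the highest thymus over spleen differences among the 22180 genes measured on the arrays. That choice used the thymus against spleen contrast itself, so the tissue differences below are a description and carry no test, whereas the comparison of genotypes was tested.

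RNA was profiled on 8 Affymetrix arrays, 2 for each of 4 groups of sorted Foxp3(GFP)+CD4+CD25+ Treg cells. The groups were thymic Treg cells of miR-181a/b-1-/- mice (thymus KO), thymic Treg cells of miR-181a/b-1+/- mice (thymus HET), splenic Treg cells of miR-181a/b-1-/- mice (spleen KO) and splenic Treg cells of miR-181a/b-1+/- mice (spleen HET). All mice were C57Bl/6J, carried a GFP reporter expressed from the Foxp3 locus and, per the methods of the study, were 7 to 12 weeks old. Each array held RNA of pooled mice. Per the labels, pools KO1 and KO2 each joined 2 females and 1 male. By the same labels, pool HET1 joined 3 females and 1 male, and pool HET2 joined 4 females and 1 male. Each pool gave 1 thymus and 1 spleen array. The figure legend of the study gives a number of pooled animals that does not match all of these labels. The controls were heterozygous and had lost 1 copy of the cluster, and none of the 8 arrays was of wild-type mice. The cells were bulk sorted populations, in which fewer cells of a type and less RNA per cell cannot be told apart.

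Treg cells are CD4 T cells that hold back immune responses and depend on the transcription factor Foxp3. They arise in the thymus after strong recognition of self antigen and then seed the spleen and other tissues, and the thymus also holds mature Treg cells that have returned from the periphery. Kit is the receptor tyrosine kinase for stem cell factor (Kitl) and is best known from haematopoietic progenitors and mast cells. Adgrg1 (GPR56) is an adhesion G protein-coupled receptor that binds collagen III and transglutaminase 2. Arhgap20 is an intracellular GTPase-activating protein that is itself activated by Rap1, the small GTPase of integrin activation. Lad1 (ladinin 1) is a filamentous protein of epithelial anchoring structures, and Tff1 is a secreted trefoil peptide of gastric mucus. miR-181a and miR-181b are abundant in thymocytes, where they raise sensitivity to T cell receptor signals.

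The mature 5p microRNAs of the deleted cluster are shown first because the deletion of this cluster defines the KO and HET genotypes. Both lie on the plus strand of chromosome 1 (GRCm38.p6), miR-181a-5p at chr1:137966468-137966490 and miR-181b-5p at chr1:137966650-137966673, and the sequences are those of RefSeq. The capitals mark the seed, bases 2 to 8, which is the same in both.
miR-181a-5p: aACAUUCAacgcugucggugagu
miR-181b-5p: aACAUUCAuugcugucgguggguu

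The array does not read the mature forms. Its probe sets for Mir181a-1 and Mir181b-1 averaged 2.50 and 2.28 in thymus KO, 2.32 and 3.01 in thymus HET, 2.11 and 2.37 in spleen KO and 2.25 and 2.45 in spleen HET on the log2 scale. All were below 4.63, the level under which 95% of olfactory receptor genes averaged, so the arrays hold no check of the deletion.

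The start-site regions of the chosen genes are shown because the genes were picked for a common pattern of transcript levels, which raises the question of what letters they share there. RefSeq windows (GRCm38.p6, 250 bases before to 50 after a start site) were at hand for 4 of the 5 genes, all on the plus strand. A search of both strands covered 7 motifs. GGGCGG is the GC box that is read by Sp factors. Runx factors, which act throughout T cell development, read TGTGGT. The Gata factors, with Gata3 the best known in CD4 T cells, read AGATAA. The AP-1 motif of factors induced by T cell receptor signals was written as TGACTCA. The site of the Nr4a nuclear receptors, likewise induced by such signals, was AAAGGTCA. Forkhead factors, the class to which Foxp3 belongs, were searched as TGTTTAC. The TATA box of core promoters was written as TATAAA. Matches to different motifs did not overlap in the windows of these genes. Capitals mark every match. The windows are those of Kit at chr5:75574737-75575036, Arhgap20 at chr9:51765101-51765400, Lad1 at chr1:135818348-135818647 and Adgrg1, from an internal start site, at chr8:94984149-94984448.
Kit: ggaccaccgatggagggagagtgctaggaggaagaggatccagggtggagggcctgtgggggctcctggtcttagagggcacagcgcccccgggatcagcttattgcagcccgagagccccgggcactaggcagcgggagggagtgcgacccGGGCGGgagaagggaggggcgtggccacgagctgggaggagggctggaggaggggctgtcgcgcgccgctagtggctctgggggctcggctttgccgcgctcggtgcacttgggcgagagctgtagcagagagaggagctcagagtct
Arhgap20: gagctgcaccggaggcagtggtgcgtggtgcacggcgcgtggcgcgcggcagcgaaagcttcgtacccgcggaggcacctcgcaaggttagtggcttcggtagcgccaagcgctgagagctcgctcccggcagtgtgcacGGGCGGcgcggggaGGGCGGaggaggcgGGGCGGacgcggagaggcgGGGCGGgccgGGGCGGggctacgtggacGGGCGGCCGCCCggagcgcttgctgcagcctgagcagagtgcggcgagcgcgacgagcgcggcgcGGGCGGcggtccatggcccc
Lad1: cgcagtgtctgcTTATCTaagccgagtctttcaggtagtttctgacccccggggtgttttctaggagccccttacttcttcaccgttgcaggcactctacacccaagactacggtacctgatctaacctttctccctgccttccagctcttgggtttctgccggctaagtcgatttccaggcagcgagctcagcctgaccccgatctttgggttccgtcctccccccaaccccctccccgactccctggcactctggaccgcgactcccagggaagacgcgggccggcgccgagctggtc
Adgrg1: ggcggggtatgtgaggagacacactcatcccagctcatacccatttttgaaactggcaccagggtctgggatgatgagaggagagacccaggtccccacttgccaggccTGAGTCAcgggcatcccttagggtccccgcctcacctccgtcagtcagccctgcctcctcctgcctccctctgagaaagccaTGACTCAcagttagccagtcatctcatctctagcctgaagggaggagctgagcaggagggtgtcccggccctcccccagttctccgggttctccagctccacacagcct

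The windows shared few motif matches, whereas each had a GC content above the median of all windows. The Arhgap20 window held 48 CpG dinucleotides, a GC content of 77.0% and 8 matches to the GC box, and the Kit window held 20 CpG, a GC content of 69.0% and 1 GC box. The median over all 32851 mouse windows was 7 CpG and 52.7% GC, and 35.7% of them held a GC box. Lad1 carried a single TTATCT, the reverse complement of AGATAA, which 11.2% of all windows held. The Adgrg1 window held TGAGTCA and TGACTCA, which read as the same AP-1 motif from opposite strands and are 141 and 59 bases before the start site, and 5.20% of all windows held this motif. A further Adgrg1 window, at an upstream start site, held none of the 7 motifs. The Lad1 window had 60.3% GC and 18 CpG. Both Adgrg1 windows had 60.7% GC, with 6 CpG in the printed one and 7 in the other. None of the members' windows held the Runx, Nr4a, forkhead or TATA letters, which were found in 16.8%, 1.51%, 3.65% and 13.6% of all windows. A match of letters is a description and not a binding site.

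Values were normalised log2 intensities as deposited, in which a difference of 1 is a 2-fold change. Array medians over all 41345 probe sets lay between 4.58 and 4.70. Across the same probe sets, the 2 arrays of a group correlated with r of 0.984 to 0.990. Olfactory receptors, which T cells are not known to use, gave a working level for background: 95% of the 1105 olfactory receptor genes averaged under 4.63. Foxp3 averaged 11.11 in thymus KO, 11.24 in thymus HET, 10.82 in spleen KO and 10.95 in spleen HET, and Cd4 and Il2ra lay between 10.63 and 11.40 on every array. The arrays did not match all labels. Xist, the RNA of the silenced X chromosome, stood at 8.80 to 9.40 on the KO arrays and at 3.58 to 4.40 on the HET arrays, although every HET pool was labelled as mostly female. The Y-linked Eif2s3y, Kdm5d and Uty were measured on all 8 arrays. Sex and genotype therefore cannot be told apart between KO and HET. The 5 genes lie on chromosomes 5, 1, 8, 9 and 17, and their tissue differences are given for the KO pools by themselves as well.

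Kit, a receptor at the cell surface (chr5:75574987-75656722), had the largest tissue difference of the 5. Its level was 7.70 and 7.46 in thymus KO, 7.22 and 6.67 in thymus HET, 5.09 and 4.78 in spleen KO and 4.65 and 4.63 in spleen HET. All thymic arrays stood above all splenic arrays, and the spleen HET arrays lay at the background level. Thymus exceeded spleen by 2.64 in KO (6.24-fold) and by 2.30 in HET. With the splenic HET level at background, the HET value stands for a difference of at least 4.92-fold.

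Adgrg1, the other receptor (chr8:94974756-95014208), had levels of 7.26 and 6.91 in thymus KO, 6.43 and 6.65 in thymus HET, 4.49 and 4.94 in spleen KO and 4.86 and 4.70 in spleen HET. Its splenic arrays were near background in both genotypes, and 1 of the 2 spleen KO arrays was under it. The thymus minus spleen difference was 2.37 in KO and 1.76 in HET as measured. With the splenic array under background raised to that level, thymus was at least 4.93-fold higher in KO, and it was 3.38-fold higher in HET, where both splenic arrays lay just above background. It also varied most among the 4 mouse pools, with 2.77 and 1.97 in pools KO1 and KO2 and 1.57 and 1.95 in pools HET1 and HET2.

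Arhgap20, the GTPase-activating protein (chr9:51765351-51853059), was well above background in both organs. Its level was 10.07 and 9.83 in thymus KO, 9.57 and 9.73 in thymus HET, 8.0 and 7.78 in spleen KO and 7.70 and 7.88 in spleen HET. The difference was 2.06 in KO (4.18-fold) and 1.87 in HET (3.64-fold). Of the 5 genes it was the steadiest, with an SD of 0.11 over the 4 pools and folds between 3.63 and 4.20.

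Lad1, the filamentous anchoring protein (chr1:135818598-135833341), had levels of 9.24 and 8.98 in thymus KO, 8.73 and 8.87 in thymus HET, 6.80 and 7.21 in spleen KO and 6.83 and 6.66 in spleen HET. It was thus clearly measured in splenic Treg cells too. Thymus exceeded spleen by 2.10 in KO (4.30-fold) and by 2.06 in HET (4.17-fold), although single pools ranged between 3.40-fold and 5.43-fold.

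Tff1, the secreted trefoil peptide (chr17:31161395-31165060), had the smallest difference of the 5. Its level was 6.92 and 6.86 in thymus KO, 6.97 and 7.05 in thymus HET, 5.56 and 5.39 in spleen KO and 5.70 and 5.31 in spleen HET. The difference was 1.42 in KO (2.67-fold) and 1.51 in HET (2.85-fold). Its thymic KO arrays were the only ones among the 5 genes to lie below the thymic HET arrays.

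**Figure D1:**
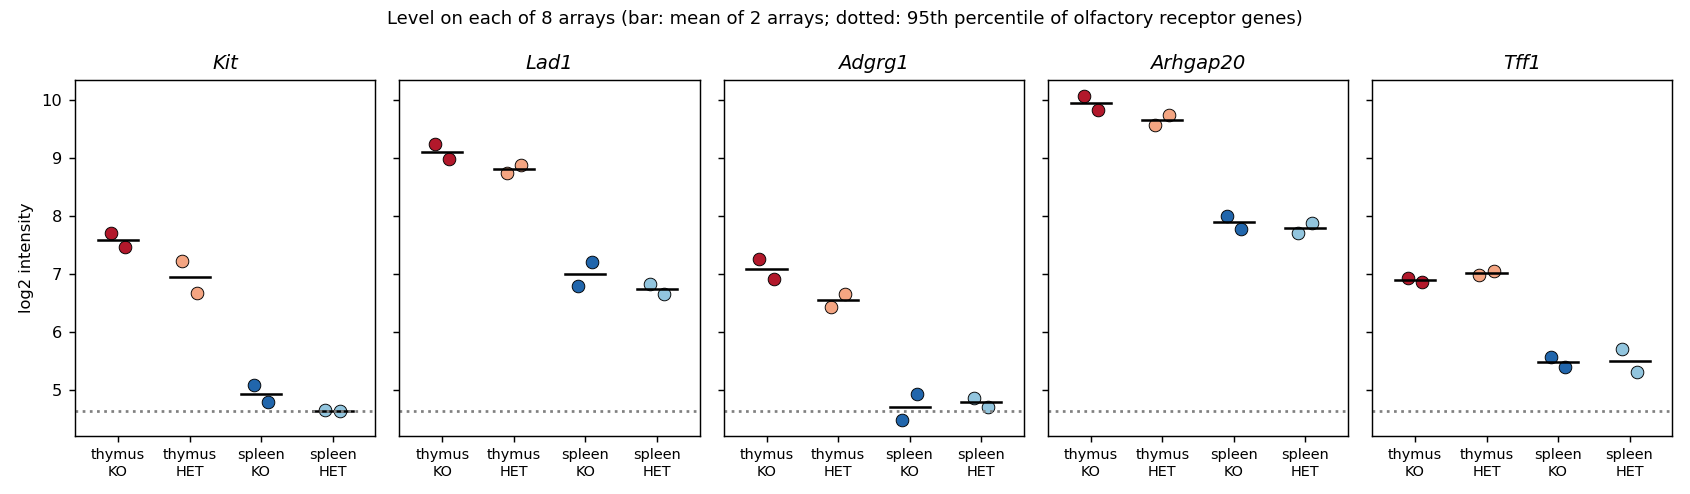
Normalised log2 intensity of the 5 genes on each of the 8 arrays, with 1 panel per gene, groups along the x axis in the order thymus KO, thymus HET, spleen KO and spleen HET, points for arrays, bars at the mean of 2 arrays, and a dotted line at the background level of 4.63. Every thymic array lies above every splenic array of the same gene, and the splenic arrays of Kit and Adgrg1 sit close to the line.

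Between the lowest thymic and the highest splenic array a gap of 1.58 was left for Kit, 1.52 for Lad1, 1.50 for Adgrg1, 1.58 for Arhgap20 and 1.17 for Tff1. The rule that chose the genes fixes this separation, which all 5 shared with 6.19% of all genes. The rule also favours a difference above 1 in each of the 4 pools, found in all 5 and in 0.0857% of all genes. This share is therefore a description and no separate support. Per the labels, the thymic and the splenic cells of each pool came from the same mice. If the labels hold, these differences compare organs within animals.

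**Figure D2:**
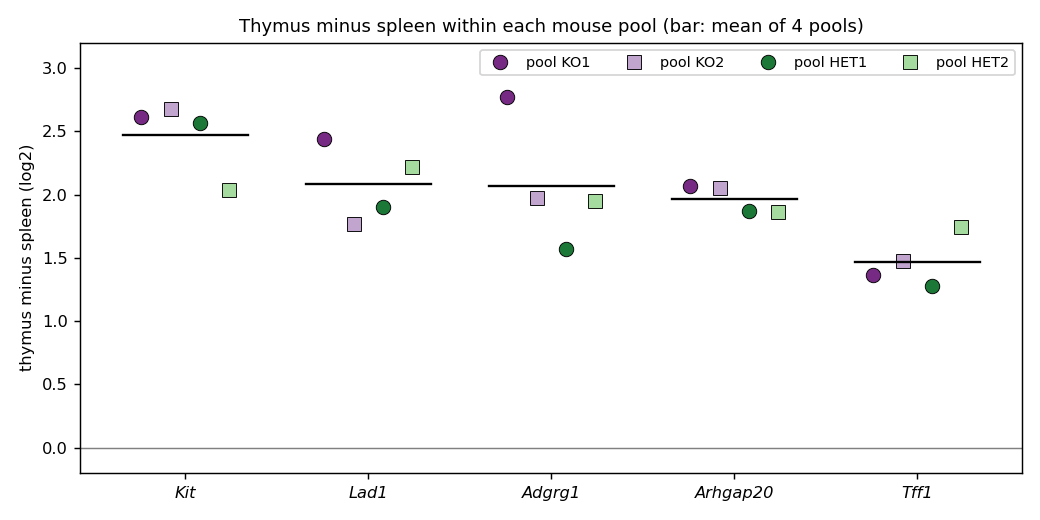
Thymus minus spleen difference (log2) of the 5 genes in each mouse pool, with KO pools left of HET pools and a bar at the mean of the 4 pools. Kit has the highest mean, the 4 pools of Arhgap20 lie within 1.86 to 2.07, and those of Adgrg1 spread between 1.57 and 2.77.

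Ranked by the difference averaged over KO and HET, Kit (2.47) was in place 2, Lad1 (2.08) in place 4, Adgrg1 (2.06) in place 5, Arhgap20 (1.96) in place 6 and Tff1 (1.46) in place 11 of 22180 genes. The places of Kit and Adgrg1 rest on measured differences from splenic levels at or near background. Within the KO arrays alone the places were 2, 4, 3, 6 and 14. Within the HET arrays alone they were 1, 5, 8, 7 and 14. The differences of Lad1, Adgrg1 and Arhgap20 lay closer together than the SDs over pools of 0.30 for Lad1 and 0.50 for Adgrg1, so their order is not settled. Tff1 stood below the other members in both genotypes.

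The genes not chosen show what stood beside them. Ahead of Tff1 were Nrp2 (2.69, place 1), a semaphorin and VEGF co-receptor, Pde7b (2.15, place 3), a cyclic AMP phosphodiesterase, the histone genes H2bc12 (1.84) and H2ac10 (1.80), the chemokine gene Xcl1 (1.69) and Nr4a3 (1.65), an orphan nuclear receptor induced by T cell receptor signals. Just after Tff1 came Sox4 (1.43), a transcription factor of early lymphocytes, Mx2 (1.37), an interferon-induced GTPase, and Abca1 (1.35), a cholesterol exporter.

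**Figure D3:**
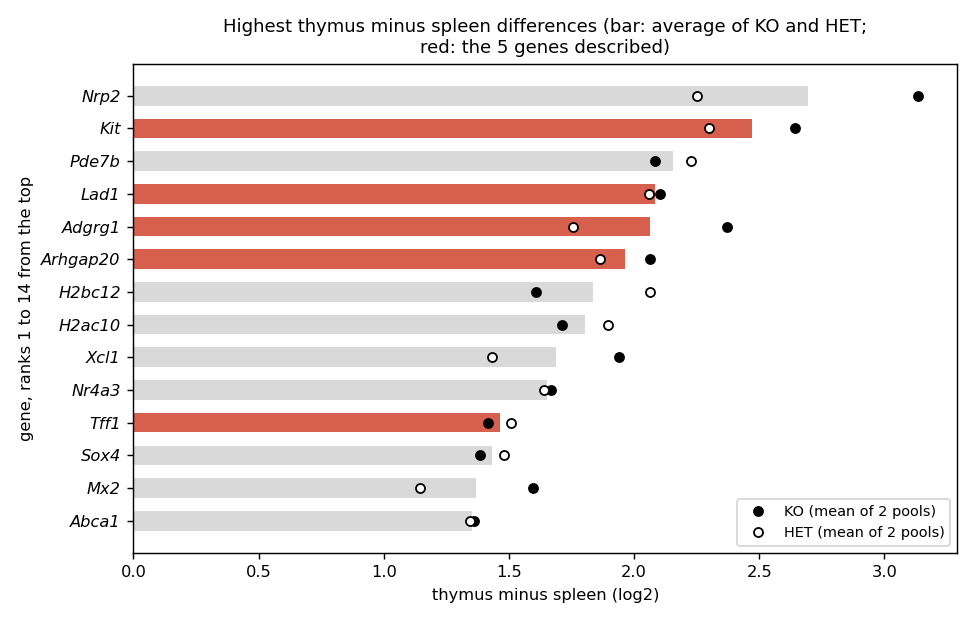
The 14 genes with the highest thymus minus spleen difference (log2), ranked from the top, with bars for the average of KO and HET, filled points for KO and open points for HET. Red bars mark Kit, Lad1, Adgrg1, Arhgap20 and Tff1, which hold places 2, 4, 5, 6 and 11.

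The likeness of profiles over the 8 arrays is given as a description. The arrays fall into a thymic and a splenic set, so any gene with a tissue difference has a high correlation. The 49 genes set beside each member had an averaged difference of 1 or more and a thymic mean above background. Predicted gene names were left out, and the filter on level was applied only in the organ where these genes were high. The 5 genes correlated with each other with r between 0.950 (Kit and Tff1) and 0.990 (Lad1 and Adgrg1). The profile closest to Kit was that of Lactb (0.991), a mitochondrial serine protease-like protein, followed by Arhgap20 (0.984) and Nrp2 (0.983). Ctsw, a cathepsin of cytotoxic lymphocytes, was closest to Lad1 (0.993). Lad1 was closest to Adgrg1 (0.990), followed by Nrp2 (0.983). Nr4a3 was closest to Arhgap20 (0.995), and C1qtnf12 was next (0.988). For Tff1 the nearest were H2ac10 (0.985), C1qtnf12 (0.983), Nr4a3 (0.980) and Nr4a1 (0.974), a relative of Nr4a3 that is likewise induced by T cell receptor signals.

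Whether loss of miR-181a/b-1 altered the 5 genes was asked within each organ, averaged over organs, and as a difference between organs. None passed an adjusted p of 0.05 in any of the 4 comparisons (limma, Benjamini-Hochberg over 22180 genes, n = 2 arrays per group). Few genes of the whole array did, namely 0.00451% in thymus, 0.00451% in spleen, 0.0225% averaged over the organs and 0% for the difference between organs. These p-values rest on a spread per gene that was pooled over the 4 groups (4 residual degrees of freedom) and moderated across genes. Thymic and splenic arrays of the same pool entered this fit as independent. The intervals below are what the comparison can and cannot show.

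In thymus, both KO arrays were above both HET arrays for Kit, Lad1, Adgrg1 and Arhgap20, an order that 15% of all genes had, and both were below for Tff1, as for 14.4% of all genes. The 4 genes were read on the same arrays and do not count as separate observations. Kit was 0.63 higher in thymus KO when compared to thymus HET (95% interval 0.24 to 1.03, adjusted p = 0.636), which is 1.55-fold. Pool HET2 had the lowest thymic Kit level, and without it the difference was 0.36, whereas without pool HET1 it was 0.91. Adgrg1 differed by 0.54 (0.16 to 0.92, adjusted p = 0.751). At an unadjusted p under 0.05, these were the 2 members in thymus, where 2.58% of all genes were higher in KO at that level. Lad1 differed by 0.30 (-0.05 to 0.66, adjusted p = 0.943) and Arhgap20 by 0.30 (-0.02 to 0.61, adjusted p = 0.910). For Tff1 the difference was -0.12 (-0.44 to 0.20, adjusted p = 0.992). The median over all genes was 0.00.

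In spleen the differences were smaller. Kit was the only member with both KO arrays above both HET arrays, an order that 18.6% of all genes had, and differed by 0.29 (-0.11 to 0.69). Lad1 differed by 0.26 (-0.09 to 0.61), Arhgap20 by 0.10 (-0.22 to 0.41), Tff1 by -0.03 (-0.35 to 0.29) and Adgrg1 by -0.07 (-0.46 to 0.31). The adjusted p was 1.00 for each, and 0 of 5 members had an unadjusted p under 0.05, against 4% of all genes. Single arrays moved these values. Without spleen KO array 1 the difference was 0.14 for Kit and 0.47 for Lad1, and without spleen KO array 2 it was 0.45 for Kit and 0.056 for Lad1. Without spleen HET array 2 it was 0.18 for Lad1.

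Averaged over both organs, Kit was 0.46 higher in KO (0.18 to 0.75, adjusted p = 0.539) and Lad1 0.28 higher (0.03 to 0.53, adjusted p = 0.833). These were the 2 members at an unadjusted p under 0.05, a level at which 2.67% of all genes were higher in KO. Adgrg1 (0.23, -0.04 to 0.51), Arhgap20 (0.20, -0.03 to 0.42) and Tff1 (-0.08, -0.30 to 0.15) had intervals that included 0.

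The difference between organs in the KO minus HET value was 0.61 for Adgrg1 (0.07 to 1.15, adjusted p = 1.00, unadjusted p = 0.0299). It was 0.34 for Kit (-0.22 to 0.90), 0.20 for Arhgap20, 0.04 for Lad1 and -0.09 for Tff1, with an adjusted p of 1.00 for all. The value of Kit was 0.067 without thymus HET array 2 and 0.62 without thymus HET array 1. Of all genes, 3.67% had an unadjusted p under 0.05 here. No member was thus shown to respond differently to the loss of the cluster in the 2 organs with these 8 arrays, and the upper ends of the intervals for Kit and Adgrg1 were 0.90 and 1.15.

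**Figure D4:**
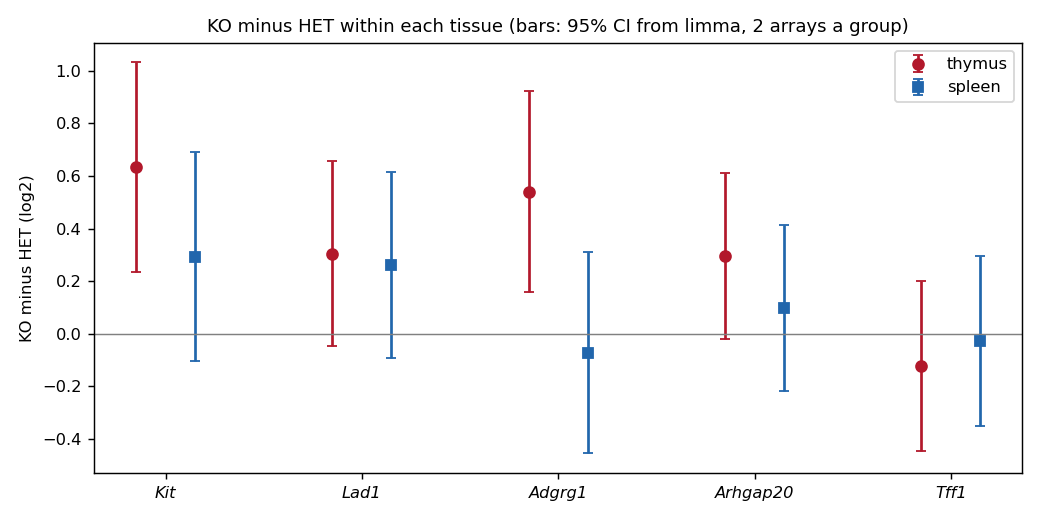
KO minus HET difference (log2) of the 5 genes in thymus (circles, left) and in spleen (squares, right), with 95% intervals from limma as bars. The thymic intervals of Kit and Adgrg1 exclude 0 before adjustment, whereas none of the differences passes an adjusted p of 0.05.

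The relatives and partners of the 5 genes were then examined, 7 lists in all with the members left out. Across the array 2.26% of genes were higher and 3.17% lower in thymus when compared to spleen at an adjusted p under 0.05, and the median difference was 0.02. In the lists few genes passed this test. The differences of those that did were below those of the 5 genes, which the choice of the 5 by this contrast largely fixed.

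For Kit, 26 of 28 genes of its ligand and signalling route were measured, of which 1 rose in thymus and 0 fell, with a median of -0.03. The gene that rose was Stat5a, a transcription factor downstream of both Kit and the IL-2 receptor, by 0.77 (1.70-fold, adjusted p = 0.000803). Its thymic arrays lay between 8.11 and 8.39 and its splenic arrays between 7.44 and 7.57. Kitl, the ligand, was below the background level on all 8 arrays, with 2.94 to 3.29 in thymus and 2.85 to 3.53 in spleen. The 4 other type III receptor tyrosine kinases, Flt3, Csf1r, Pdgfra and Pdgfrb, had a median of 0.02 and 0 of 4 passed, and 2 of the 4 exceeded the background level on any array.

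Of the other adhesion G protein-coupled receptors 26 of 29 were measured, but only 8 exceeded the background level on any array. Celsr2, a cadherin-type member, rose by 0.62 in thymus (adjusted p = 0.0101) and Celsr1, its relative, fell by 0.76 (adjusted p = 0.00165). The call of Celsr2 was lost without spleen KO array 2 (or without spleen HET array 2), with an adjusted p of up to 0.0566, whereas Celsr1 passed whichever array was left out. The median of the list was 0.04.

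The ligands and partners of Adgrg1 included 3 genes that fell and 0 that rose among 13 of 14 measured, with a median of -0.10. Cd9, a tetraspanin that associates with Adgrg1, fell by 0.95 (0.519-fold, adjusted p = 0.000626), with 6.30 to 6.76 in thymus and 7.42 to 7.64 in spleen. Gnaq, a G protein alpha subunit, fell by 0.52 (adjusted p = 0.0215), and Arhgef12, a guanine nucleotide exchange factor, fell by 0.50 (adjusted p = 0.00616). Cd9 and Arhgef12 passed without any 1 of the 8 arrays. Gnaq passed in 3 of 8 such fits and did not pass without spleen HET array 2, either spleen KO array, thymus HET array 2 or thymus KO array 2 (adjusted p up to 0.0988).

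Of the genes that load, unload or read Rap1, the activator of Arhgap20, 15 of 17 were measured with a median of -0.09. Sipa1l2, a Rap GTPase-activating protein, fell by 0.36 (adjusted p = 0.0491), a call that held in 1 of 8 fits without an array, namely the one without thymus KO array 1. Of the epithelial anchoring complex to which Lad1 belongs 10 of 12 genes were measured, with a median of 0.02. Itga6, the laminin-binding integrin chain, fell by 0.72 (adjusted p = 0.000641, kept without any 1 array), with 8.67 to 8.85 in thymus and 9.47 to 9.53 in spleen. Of the trefoil factors and gastric mucus genes 12 of 13 were measured, 0 passed, and the median was 0.09. Tff2 averaged 4.92 in thymus KO, 4.68 in thymus HET, 4.75 in spleen KO and 4.68 in spleen HET, at the background level, and Tff3 was below it on all arrays.

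**Figure D5:**
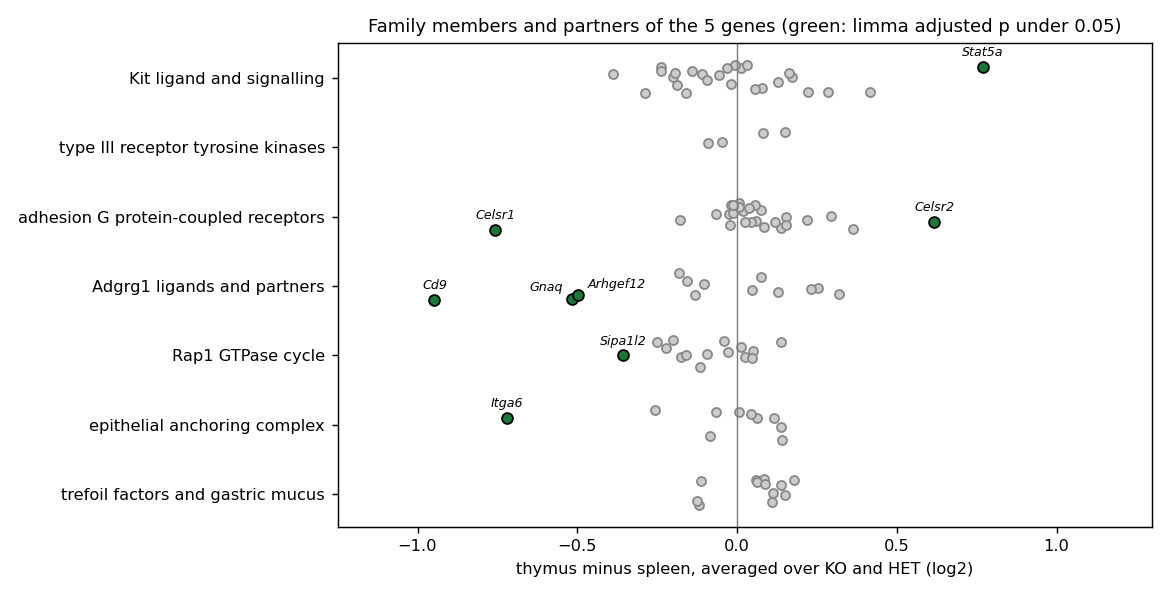
Thymus minus spleen difference (log2, averaged over KO and HET) of the measured relatives and partners of the 5 genes, 1 row per list and 1 point per gene, with green for an adjusted p under 0.05. Stat5a and Celsr2 are the farthest to the right, Cd9 and Celsr1 the farthest to the left, and most points lie near 0.

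When KO was compared to HET, 0 genes of these lists passed in thymus and 0 in spleen. At an unadjusted p under 0.05, the Kit route had 0 of 26 genes in thymus and 2 in spleen, the adhesion G protein-coupled receptors 3 of 26 in thymus and 0 in spleen, the Adgrg1 partners 1 of 13 in thymus and 2 in spleen, and the trefoil and gastric genes 0 of 12 in thymus and 1 in spleen. The other 3 lists had 0 in both organs. Of all genes, 4% had an unadjusted p under 0.05 in spleen in either direction, and 2.58% were higher in KO at that level in thymus. The 3 adhesion receptors in thymus were Adgra3, Adgre1 and Adgrl2, all higher in KO. Adgre1 and Adgrl2 exceeded background on 0 of 8 arrays and Adgra3 on 2 of 8.

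Genes that mark other cells of thymus and spleen were read beside the 5 genes. Kit is a defining gene of mast cells, and all 10 mast cell genes, Cpa3 among them, were below the background level on every array. Their summed linear level was 100.4 to 107.1 in thymus KO, 98.3 to 100.7 in thymus HET, 91.97 to 102.0 in spleen KO and 92.3 to 93.4 in spleen HET. Kit also marks early T cell progenitors. Of 12 such genes 1 passed, Erg, which differed by 0.42 (adjusted p = 0.0436) and passed in 0 of 8 fits without an array. Erg exceeded background on 1 of 8 arrays. The summed level of the list was 325.5 to 333.6 in thymus KO, 302.8 to 340.5 in thymus HET, 285.4 to 294.0 in spleen KO and 296.0 to 297.4 in spleen HET. Of the 12 genes 6, among them Flt3, Cd34, Meis1 and Hhex, were below background on all arrays, whereas Spi1, Lmo2, Tal1 and Ptcra were above it on all 8 arrays in both organs.

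Double-positive thymocytes gave a different picture. Of 9 measured marker genes of 11, 2 were higher in thymus, Cd8a by 1.15 (adjusted p = 0.00257) and Dntt by 0.96 (adjusted p = 0.000186), and both passed without any 1 array. Cd8a averaged 5.75 in thymus KO, 4.48 in thymus HET, 4.10 in spleen KO and 3.82 in spleen HET, and exceeded background on 2 of 8 arrays. Dntt averaged 4.605 in thymus KO, 5.02 in thymus HET, 3.805 in spleen KO and 3.90 in spleen HET. It likewise exceeded background on 2 of 8 arrays. The summed level of the 9 genes was 1042.8 to 1199.5 in thymus KO, 1010.4 to 1061.3 in thymus HET, 956.0 to 961.7 in spleen KO and 920.8 in both spleen HET arrays. Rag2 and Arpp21 were below background on all arrays, and Cd8b1, Cd1d1, Rmnd5a and Tcf12 were above it on all 8 arrays. In the thymic comparison of KO and HET, where none of the 5 genes passed, Cd8a differed by 1.27 (adjusted p = 0.326), and Dntt by -0.42 (adjusted p = 0.751). The SD of Cd8a between the thymus KO arrays was 0.67, and the higher of them stood at 6.22. The part of these cells in the values of the 5 genes was not tested.

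Lad1 and Tff1 are best known from epithelia, and of 14 measured markers of thymic epithelial cells 0 passed. Krt14, Krt18, Psmb11, Prss16 and Trp63 were below background on all arrays, whereas Epcam, Krt8, Cldn3, Ccl25 and Aire were above it on all 8 arrays in both organs. Foxn1 averaged 4.43 in thymus KO, 4.66 in thymus HET, 4.53 in spleen KO and 4.52 in spleen HET, and the summed level was 466.3 to 509.8 in thymus KO, 487.1 to 509.2 in thymus HET, 443.7 to 470.5 in spleen KO and 457.0 to 472.1 in spleen HET. Aire averaged 5.94 in thymus KO, 6.07 in thymus HET, 5.70 in spleen KO and 5.71 in spleen HET (difference 0.30, adjusted p = 0.158). Among innate-like and cytotoxic lymphocyte genes, of 9 measured, Nkg7 rose by 0.73 in thymus (adjusted p = 0.00527) and Gzmb fell by 0.55 (adjusted p = 0.0408). Among 6 B cell genes Cd22 fell by 0.47 (adjusted p = 0.0206), and 0 of 10 myeloid and 0 of 2 erythroid genes passed. Gzmb exceeded background on 2 of 8 arrays and Cd22 on 4 of 8. Of the 7 Treg genes Tnfrsf18 (GITR) rose by 0.49 in thymus (adjusted p = 0.0122). Nkg7 passed without any 1 array. Tnfrsf18 did not pass without spleen HET array 2 or spleen KO array 1, Cd22 not without spleen HET array 2, either spleen KO array or thymus KO array 2, and Gzmb passed only in the fits without spleen HET array 2 and without spleen KO array 2. The part of these cells in the values of the 5 genes was likewise not tested.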

How the data were processed

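The 8 arrays were read from the table of log2 intensities deposited by the authors, whose processing notes name the oligo package with no version. The normalisation function is not given in the sources used here, and the array type in the study's methods is not the one whose probe set identifiers the table carries. Of 41345 probe sets 23521 carried a single gene symbol in the platform annotation, 23328 of these matched RefSeq by gene number, and the probe set with the highest mean stood for each of 22180 genes. Each of the 5 genes had 1 such probe set. No table of reads exists for arrays, and their number, 2 per group, limits the precision.

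A model with the 4 groups was fitted with limma 3.58.1 (R 4.3.3), with Benjamini-Hochberg adjusted p-values across the 22180 genes and a threshold of 0.05. Tested on simulated data for the thymic comparison of KO and HET with 22180 genes, it recovered 69 of 100 genes changed by 1 and 95 of 100 changed by 2 (log2). The simulated noise was independent between arrays, without a pool effect, and all these genes were changed at once. The recovered counts are therefore a check of the code and not the power for a single gene of these data. Named genes were the 5 members, their ranked neighbours, genes among the 5 closest profiles of each, and list genes that passed. Other list and check genes were named for their level, their role or an unadjusted p under 0.05, whether or not they passed. The members, lists and motifs were chosen with earlier results of these data known. Thymic and splenic arrays of 1 pool share mice per the labels, which pairs organs. The deviations of such arrays correlated with r of 0.022 in KO and 0.123 in HET. KO and HET arrays share only a number (0.205 in thymus, -0.046 in spleen). Alternatives were array weights, trended and robust variance, quantile normalisation, dropping low genes, averaging probe sets, single organs, pool or number as a block, and leaving out each array. 1 list of genes related to Arhgap20 is not reported here.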

Additional observations from a re-analysis of the deposited data

How the results depend on the processing

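Across 17 alternatives, those that could be run for each comparison, 0 of the 5 genes passed for KO against HET in either organ, averaged, or as a difference between organs. The lowest adjusted p values were 0.233 for Kit averaged over organs and 0.358 for Kit in thymus. The thymus minus spleen differences were recomputed in 12 settings, kept their sign and moved by less than 1 SD over pools. Averaging probe sets could not move them, since each gene had 1 probe set, nor could the mean of the differences within pools. The genes were chosen by this contrast, so this steadiness is a description. Single arrays turned the sign of differences near 0. Leaving out 1 array in turn, the KO minus HET difference ranged in spleen between -0.30 and 0.15 for Adgrg1, -0.013 and 0.21 for Arhgap20 and -0.22 and 0.16 for Tff1. Averaged over organs it ranged between -0.17 and 0.022 for Tff1. As a difference between organs it ranged between -0.16 and 0.25 for Lad1 and -0.29 and 0.10 for Tff1.

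Counts in the gene lists, thymus against spleen, moved by single genes. In the Kit route 1 gene fell, against 0, with array weights, with trended and robust variance, with low genes left out and with the pool as a random replicate block or the number as a replicate block, and without 1 array 1 to 2 rose and 0 to 1 fell. Adhesion receptors higher in thymus numbered 2 with low genes left out (0 to 2 without 1 array). Of the Adgrg1 partners 1 rose, against 0, with trended and robust variance, with low genes left out, with quantile normalisation and with the pool as a random replicate block. Of the Rap1 genes 0 fell with quantile normalisation (0 to 1 without 1 array), and of the anchoring genes 1 to 2 fell without 1 array. Leaving out low genes or an array changes how many genes or arrays are tested, and otherwise the cause was not tested. With either replicate block, every list or marker gene named as passing for tissue passed again. With the number as a block the markers Cd4 (adjusted p = 0.0279) and Xcr1 (0.0391) passed in addition. Splenic Kit and Adgrg1 lay near the background level of 4.63, which limits how well their differences are measured. Leaving out 1 array, the KO minus HET difference ranged in thymus between 0.36 and 0.91 for Kit, 0.37 and 0.72 for Adgrg1, 0.17 and 0.44 for Lad1 and 0.18 and 0.41 for Arhgap20, and in spleen between 0.14 and 0.45 for Kit and 0.056 and 0.47 for Lad1.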
